A study of Mus musculus with 8 samples.

Results

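The untreated olfactory bulb is described here from the 2 arrays of the C-C group, out of 8 arrays in the series. C-C mice were male C57BL/6J offspring reared with their dam in a standard cage, weaned at 27 days and then housed in a control chamber with clean air for 8 hours per day on 28 days, from day 28 to day 55, before the bulb was taken at 56 days of age. The other 6 arrays come from mice that were enriched, exposed to diesel exhaust or both, and no group was compared with another. According to the methods, RNA of 7 mice, 1 from each cage, was pooled and the pool was divided over the 2 arrays. By that account the arrays are technical replicates of 1 pool, which do not hold the spread between mice, and no test was made. In whole bulb fewer cells of a type and less RNA per cell cannot be told apart.

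The olfactory bulb receives the axons of the olfactory sensory neurons of the nose, which end in glomeruli on mitral and tufted cells, the output neurons of the bulb. Most neurons of the bulb are GABAergic interneurons, the granule and periglomerular cells, which are renewed throughout life by neuroblasts that arrive along the rostral migratory stream. The incoming axons are wrapped by olfactory ensheathing cells. Omp, Gng13 and S100a5 mark mature sensory neurons, Th marks the dopaminergic periglomerular cells and Gad1 encodes a GABA-synthesizing enzyme.

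All 34789 gene names with a usable probe were ordered. The level of a probe is its log2 signal minus the log2 of the 75th percentile of noncontrol spots on the same array, so that 0 is the signal at that percentile, and a gene takes the level of its brightest probe. A gene has signal when at least 1 of its probes lay well above background on both arrays, and is without signal otherwise. Of the 60 listed genes without signal, 48 were above background on neither array, 11 on array 1 alone and 1 on array 2 alone. The order is one of probe signals. A probe's brightness depends on the probe as well as on the transcript, so distances between genes are not ratios of transcripts, and genes without signal have no order among themselves.

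The 5 genes that mark the tissue all had signal and stood in the upper part of the order. Omp, a cytoplasmic protein of mature sensory neurons, had levels of 6.15 and 5.92 on arrays 1 and 2 and held rank 496. Gad1 followed with 5.86 and 5.90 at rank 579, and S100a5, a calcium-binding protein, with 5.90 and 5.73 at rank 611. Gng13, a G protein gamma subunit of sensory neurons, lay at 5.69 and 5.49 with rank 746, and Th, the rate-limiting enzyme of dopamine synthesis, at 5.49 and 5.46 with rank 823. Each was measured by 1 probe. Th and Gad1 differed by at most 0.05 between the arrays, and the 3 genes of sensory neurons were higher on array 1.

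The last 30 bases of these 5 probes are shown because each level above is the signal of that single stretch. The array files place the probes on mm9 at chr7:105291870-105291929 on the minus strand for Omp, chr17:25855911-25855970 on the plus strand for Gng13, chr3:90415643-90415702 on the plus strand for S100a5, chr7:150078703-150078762 on the minus strand for Th and chr2:70439699-70439758 on the plus strand for Gad1. Exon and UTR annotation of that build was not used here. Capitals mark the letters AATAAA, the hexamer that commonly precedes the polyadenylation site of a transcript.
Omp: gcctgtttcacAATAAAgactgtgtgccct
S100a5: cagcagagaAATAAAgccttatccattaca
Gng13: cccttgggtagagaaggccaagtgcaccat
Th: catgctgtattctaccctgattattatctc
Gad1: tgtgtactgtctggaaaagaattctgatac
Searched on the strand as printed, AATAAA or ATTAAA occurred in 13.7% of all 55666 probes, in 36.2% of the brightest 1% of probes and in 10.5% of the dimmer 50% of them. The median GC content was 43.3% in each of these 3 sets. Among 3389 genes with probes of the same RefSeq accession at least 100 bases apart on mm9, the downstream probe was brighter in 2353 (69.4%), by a median of 1.38 (log2). At distances of 2000 bases or more, it was brighter in 1341 of 1789 genes, with a median of 2.09.

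**Figure D1:**
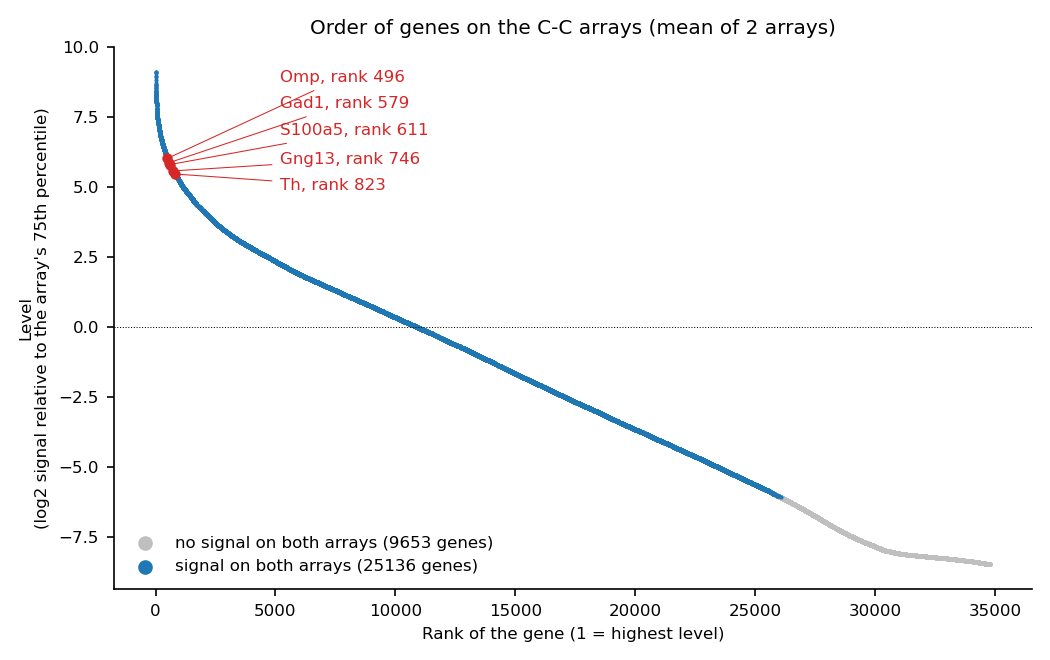
Level (log2 signal relative to the array's 75th percentile, mean of 2 arrays) of each of 34789 genes against its rank. Points are genes with signal on both arrays (blue) or without (grey), red points are the 5 marker genes, which lie between ranks 496 and 823, and the dotted line is the 75th percentile.

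Signal was present for 25136 of 34789 genes (72.3%). It was present for 15528 of 19486 genes with a RefSeq mRNA accession (79.7%), for 3438 of 4609 loci of long intergenic RNA (74.6%) and for 575 of 1025 genes with a RefSeq non-coding accession (56.1%). The summed signal was concentrated in few genes. The brightest 10% of genes held 82.8% of the summed signal on array 1 and 82.2% on array 2, and the dimmer 17395 genes held 0.38% and 0.37%. On the 2 arrays, 70.6% and 68.3% of noncontrol spots lay well above background, no noncontrol spot was saturated, and the lowest such spots had levels of -6.21 and -6.06. The spike-in controls had a fitted slope of 1.00 and 0.99 against their known amounts on the log10 scale. The dimmest of them lay at -8.18 on array 1 and -8.06 on array 2, and the next at -7.76 and -8.02. Both lay near the negative controls.

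Most genes were measured alike on both arrays. Across the 25136 genes with signal, which are not independent replicates, the SD of the difference between arrays was 0.25 and the median of the absolute difference 0.08 (log2). Among genes with levels of -5 to -3, 6.5% lay at least 1.5-fold apart, against 0.16% of genes with levels of 3 to 5. Of the 100 brightest genes of each array, 90 were shared by both. Over all levels, 697 genes (2.77%) lay at least 1.5-fold apart.

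Genes of the olfactory mucosa stood apart from this. The mucosa lines the nose and is no part of the bulb, and its supporting cells and glands are known for xenobiotic enzymes and secreted proteins. Of 14 listed genes, 13 were on the array and 11 had signal on both arrays. All 11 were higher on array 1, 10 of them by at least 1.5-fold, against 2.77% of all genes with signal, and none was lower. The median of their differences was 0.80 (log2), with a range of 0.08 to 1.13, and their levels ran from -3.10 to 1.87. In the band of levels from -3 to 3, which holds 14696 genes, 81 genes were at least 1.5-fold higher on array 1 and 37 lower, 0.80% together. Several of these genes, Cyp2f2, Aqp3, Krt18 and Umodl1 among them, had been picked by the study from these same arrays, so the list is not independent of them.

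Cbr2, a carbonyl reductase, had levels of 2.19 and 1.54 on arrays 1 and 2. Cyp2g1, a cytochrome P450 of the olfactory mucosa, had 1.44 and 0.44, and Cyp2f2, another P450, had 0.73 and -0.15. Sec14l3 had 0.54 and -0.19. Muc5b, a gel-forming mucin, had -1.59 and -2.71, and Krt8, a keratin of simple epithelia, had -2.70 and -3.50. Each of these 6 genes was higher on array 1, while Obp1a, an odorant-binding protein named after its values were seen, had -2.12 and -2.20 and was the one member with signal that lay closer than 1.5-fold. Bpifa1, a secreted protein of the airways, was well above background on array 2 alone, with -0.50 against -8.38, and Lcn13 was without signal on both.

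Bone genes moved with them in part. All 9 bone genes had signal, 6 were higher on array 1 and 4 of these by at least 1.5-fold. Bglap, Bglap2 and Acp5 had been picked by the study from these same arrays, so this list is not independent of them either. Bglap2, an osteocalcin, had levels of 1.56 and 0.66, and Acp5, an acid phosphatase of osteoclasts, had -0.03 and -1.02. Ctsk, an osteoclast protease, had -0.18 and -0.51, and Sp7, a transcription factor of osteoblasts, had -0.50 and -0.37. Among all genes with signal, 52.7% were higher on array 1, and 48.7% of those with levels of -3 to 3. The 16 genes of olfactory sensory neurons were all higher on array 1, by a median of 0.24, and 1 of them by at least 1.5-fold. Of 9 genes of neutrophils and marrow, 8 were higher on array 1, with a median difference of 0.31. S100a8 of this list and Cnga4 of the sensory neuron list had also been picked by the study from these same arrays. All 9 genes of meningeal fibroblasts were higher on array 1, with a median of 0.10 and the largest differences in the collagens Col1a2 with 3.50 and 2.93 and Col1a1 with 2.43 and 1.87. So were all 8 genes of pericytes and smooth muscle, with a median of 0.13 and a range of 0.05 to 0.21. Of 9 hypothalamic peptides with signal, 5 were higher and 4 lower, a split near that of all genes with signal. Avp, vasopressin, had -3.37 and -5.03 and Oxt, oxytocin, -2.37 and -3.40, and both were named after their values were seen. Among the lower were Gnrh1 with -5.23 and -4.74 and Pomc with -0.26 and 0.14. Differences were smaller in 3 lists of bulb cells: the median was -0.04 for 17 genes of GABAergic interneurons, 0.02 for 11 of mitral and tufted cells and 0.07 for 14 of astrocytes, and none of these genes lay 1.5-fold apart. Red blood cell genes lay the other way, with 6 of 7 lower on array 1 and a median of -0.20. The methods state that both arrays hold RNA of the same pool. How the replicates were made could not be checked from the files, and the part of tissue next to the bulb in these differences was not tested.

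**Figure D2:**
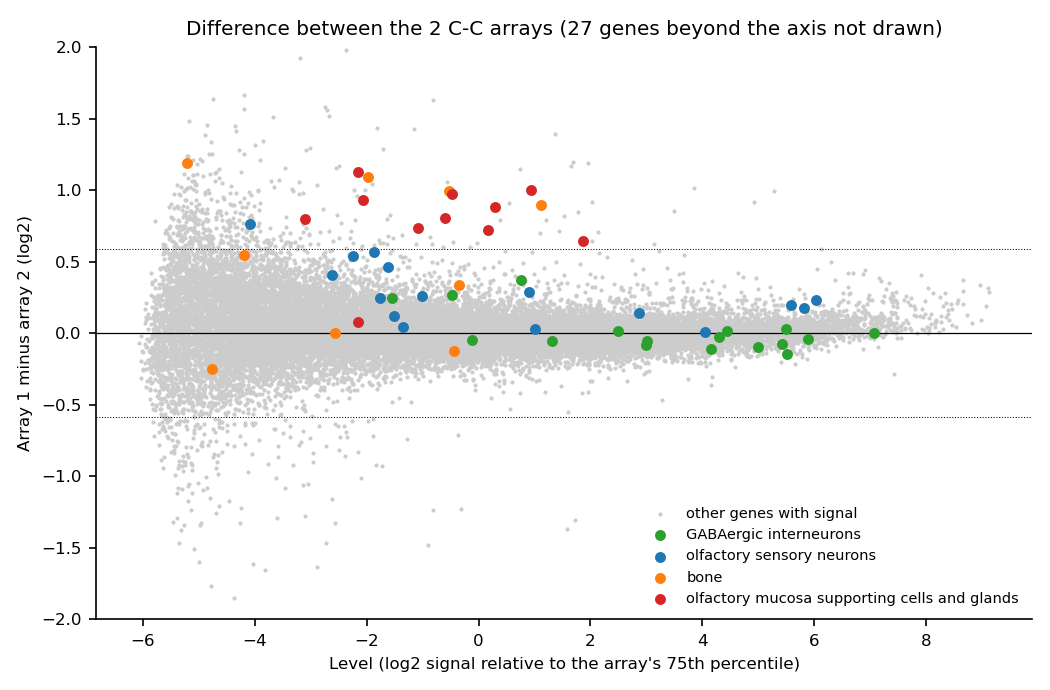
Difference between arrays 1 and 2 of the C-C pool (log2) against level (log2 signal relative to the array's 75th percentile) for genes with signal; dotted lines mark 1.5-fold, and 27 genes lie beyond the axis. The 11 genes of mucosal supporting cells and glands (red) lie between 0.08 and 1.13, whereas the 17 genes of GABAergic interneurons (green) lie between -0.15 and 0.37.

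Immediate early genes, which neurons switch on with activity, were higher on array 1 in 14 of 16, against 52.7% of all genes with signal, with a median difference of 0.23. Nr4a1 had 5.24 and 5.12, Egr1 had 4.45 and 4.29, and Arc had 3.94 and 3.40. Fos, named after its values were seen, had 1.46 and 0.75. At the low end, Egr3 had -5.30 and -5.40 and Ier2 had -2.37 and -2.94.

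At the top of the order, the brightest probe and the gene named for it often parted. Of the 25 genes of highest level with a symbol, 17 had more than 1 probe, and in 13 of these the next probe was over 4 (log2) dimmer. Kctd14 headed the order with 9.27 and 8.99, and its next probe lay at 0.53. Slc10a1, known as the bile acid transporter of the liver, stood at 9.16 and 8.97, and its other probe lay at -7.33, near the negative controls. Elk1, a transcription factor, stood at 9.02 and 8.93 with its other probe 10.98 below. Glrx2, Ttc38, Med16, Lilrb3, Synrg, Cxcl11, 2610028H24Rik, 1700047I17Rik2, Pbld1 and Ndor1 were of the same kind, with gaps of 5.69 to 15.18. In 14 of the 25, the brightest probe shared a run of 12 bases with probes of 9 or more other gene names, which 2653 of 55666 probes did (4.77%). Among the 100 brightest probes, 37 did so.

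The shared runs are shown because 14 of the 25 brightest genes carry such a run. The 12 bases found most often among the 100 brightest probes were ctgaagacagct, in 11 of them. On the whole array, 12 probes of 12 gene names held these bases, all had signal, and their levels ran from 7.19 to 8.55. Such letters are known from B2, a short interspersed repeat present in very many copies in the mouse genome and in the ends of many transcripts. In the following stretches the shared run is in capitals.
Synrg: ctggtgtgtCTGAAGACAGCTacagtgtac
1700047I17Rik2: ttctggtgtCTGAAGACAGCTacagtgttc
Pbld1: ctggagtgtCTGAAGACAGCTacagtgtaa
6330406I15Rik: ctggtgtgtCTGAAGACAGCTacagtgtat
The bases around the run were also nearly the same, while the probes carry the names of different genes.

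A further run, acagccagggct, was in 6 of the 100 brightest probes and in 9 probes on the array, with a median level of 8.47 and a range of 0.43 to 9.13. These letters are known from B1, another short interspersed repeat. Kctd14, Glrx2, Elk1 and Med16, at ranks 1, 2, 4 and 7, carried it.
Kctd14: agttccaggACAGCCAGGGCTatacaaaaa
Glrx2: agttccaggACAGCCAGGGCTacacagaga
Elk1: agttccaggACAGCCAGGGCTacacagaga
Med16: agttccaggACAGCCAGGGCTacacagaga
The run accatcaataaa was in 7 of the 100 brightest probes and in 10 on the array. It is part of Gapdh, the glycolytic enzyme, and of gene names that hold a copy of its end.
Gapdh: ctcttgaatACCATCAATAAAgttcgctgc
Gm12070: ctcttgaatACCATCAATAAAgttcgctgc
The remaining run, aagaagaagaag, was in 7 of the 100 and in 71 probes on the array, of which 63 lay above the 75th percentile. Any of the 4 runs was found in 31 of the 100 brightest probes and in 101 of all probes. The other 69 of the 100 held none of these 4. Whether other transcripts bound to these probes was not tested, and for the genes whose probes disagree the array gives no single level.

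**Figure D3:**
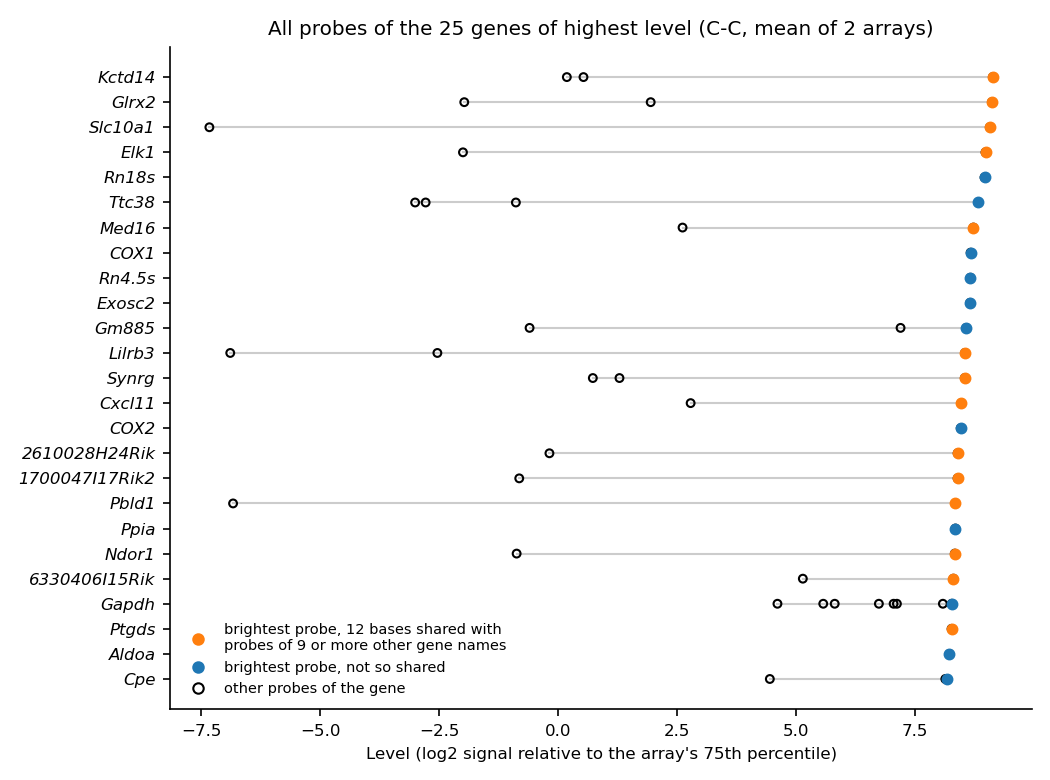
Level (log2 signal relative to the array's 75th percentile, mean of 2 arrays) of every probe of the 25 genes of highest level. Filled points are the brightest probe, orange where it shares 12 bases with probes of 9 or more other gene names, and open points are the other probes. In 13 of the 17 genes with several probes the next probe lies over 4 to the left, and in Gapdh and Cpe it lies within 0.19.

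Probes of one gene lay far apart in the rest of the order as well. Among 9625 genes with signal and 2 or more probes, the median span from the brightest to the dimmest probe was 3.06, and it was within 1 in 16.6% of them. Without probes of shared letters, the median span was 3.00 over 9013 genes. Of the 2573 genes with 3 or more probes that had signal, a long intergenic RNA locus on chromosome 14 had the widest span, 12.41. It was followed by Sox5 with 11.91, Ttc38 with 11.83, Rps27a with 11.45 and Dnajc5 with 11.24. Where the next probe of a list member named below is over 4 dimmer, its level is stated. Smaller gaps are mostly not given, and the lists hold between 5 and 25 genes.

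Among the 25 genes, those whose probe was not so shared were 11. Rn18s, the 18S ribosomal RNA, had 9.12 and 8.79. COX1 and COX2, subunits of cytochrome c oxidase encoded in the mitochondrial genome, had 8.85 and 8.48 and 8.49 and 8.43. Rn4.5s, a small RNA, had 8.76 and 8.56. Ppia, a prolyl isomerase, had 8.40 and 8.29, and Exosc2, a subunit of the RNA exosome, had 8.80 and 8.51. Each of these was measured by 1 probe. Gapdh, with 8.33 and 8.21, and Cpe, the carboxypeptidase that trims neuropeptides, with 8.20 and 8.12, had 8 and 3 probes, and their next probes lay within 0.19 and 0.03. Their dimmest probes lay at 4.61 and 4.45. Aldoa, a glycolytic aldolase, had 8.23 and 8.22 from 1 probe. Gm885 had 8.69 and 8.46, with its next probe 1.38 below, and Ttc38 was described above. Ptgds, the prostaglandin D synthase of the meninges and glia, had 8.30 and 8.23 from 1 probe that does share 12 bases with others.

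The mitochondrial genome gave 12 gene names, all with signal. Of these, 4 were among the 100 brightest genes and 11 among the brightest 10%. CYTB had 8.10 and 7.70 and COX3 had 7.87 and 7.75. ND6, which alone among them is encoded on the other strand of the mitochondrial genome, was at -0.58 and -0.73. COX1 and CYTB were higher on array 1 by 0.37 and 0.40, more than the genes of levels from 7 to 10 as a whole, whose median difference was 0.09.

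Among the abundant functions were protein synthesis, respiration, glycolysis, the cytoskeleton and proteostasis. Of 90 cytosolic ribosomal protein genes, 89 had signal against 72.3% of all genes, and 83 (92.2%) were among the brightest 10.0% of genes, with a median level of 6.12 against -2.63 over all genes. Leaving out probes of shared letters, the median of 86 of them was 6.03. All 37 subunits of complex I had signal, with a median of 5.38, and 36 were among the brightest 10.0%. Of 17 ATP synthase subunits, 16 were, with a median of 6.02. Of 19 cytochrome c oxidase subunits, 11 were, with a median of 4.94. The list of ubiquitin and proteostasis genes had 9 of 11 there and a median of 6.76. Proteasome subunits lay lower, with a median of 3.51 and 23 of 40 in the brightest 10.0%. Mitochondrial ribosomal proteins, all 76 with signal, had a median of 2.72 and 31 among the brightest 10.0%.

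Of 17 glycolytic genes, 15 were among the brightest 10.0%. Aldoc, the brain aldolase, had 8.04 and 7.91, and Ldhb, a lactate dehydrogenase, 6.80 and 6.79. At the low end, Hk2, an inducible hexokinase, had -2.69 and -2.79, and Pfkl, the liver phosphofructokinase, had 1.33 and 1.42. All 20 genes of tubulin and actin had signal and 16 were among the brightest 10.0%, led by Actg1 with 8.06 and 8.02, Actb with 7.94 and 7.91 and Tuba1b with 7.75 and 7.72. Pfn1, profilin, closed this list with 0.85 and 0.86, its other probe at -3.37. Tpt1, a translation-associated protein, had 7.85 and 7.73 and Eef1a1, an elongation factor, 6.47 and 6.45. Ubb, a polyubiquitin, had 8.03 and 8.02, and Hspa8, a constitutive chaperone, 7.88 and 7.71.

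Genes of the nerve terminal followed. All 18 genes of synaptic vesicles and release had signal, against 72.3% of all genes, 13 were among the brightest 10.0%, and the median was 5.39. Syt1, the calcium sensor of release, had 6.93 and 6.78, and Rab3a, a vesicle GTPase, 6.72 and 6.66. Cplx2, complexin, headed this list with 7.11 and 6.85, from a probe of shared letters. Calm2, a calmodulin gene, had 7.83 on both arrays. Receptors lay lower: 21 of 22 glutamate receptor subunits had signal with a median of 1.27, and 17 of 21 GABA receptor subunits with a median of 0.70. Gria1, an AMPA receptor subunit, led the first with 3.46 and 3.49, and Grm6, a receptor of the retina, was without signal. Gabbr1, a GABA-B subunit, led the other with 4.32 and 4.36, from a probe of shared letters, followed by Gabrb2 with 3.87 and 3.84. Gabrq was above background on neither array, and Gabrr3, Gabrp and Gabra6 on array 1 alone, Gabra6 with -3.58 and -7.92. Potassium channel subunits were near the middle, with 83 of 95 having signal and a median of -0.63.

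Among neuropeptide precursors, 24 of 25 had signal, against 72.3% of all genes. Cck, cholecystokinin, which tufted cells make, had 6.66 and 6.57. The granins Chgb and Scg2 had 6.56 and 6.49 and 5.96 and 5.93, and Penk, proenkephalin, had 5.39 and 5.47. Grp lay at -4.37 and -5.58 and Ucn was without signal.

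The bulb's neuron lists had signal in every member, against 72.3% of all genes and 79.7% of those with a RefSeq mRNA accession, but so did the lists for bone, neutrophils and marrow, choroid plexus and striatal neurons. The GABAergic interneurons had the highest median of the bulb's neuron lists, 4.15 over 17 genes, or 2.49 with the median over each gene's probes, and 9 of these were among the brightest 10.0% of genes. Gad1, Synpr and Meis2 lay between 5.44 and 5.90 on both arrays, although the other probe of Synpr lay at -0.17. Slc32a1, the vesicular GABA transporter, headed the list with 7.06 on both arrays, but its other probe lay at -0.02. At the low end were Calb1, calbindin, with -1.42 and -1.66 from a probe of shared letters, and the transcription factors Dlx6 with -0.34 and -0.61 and Sp9 with -0.14 and -0.09. Pvalb, parvalbumin, had 0.94 and 0.57.

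Other genes of the dopaminergic list had signal too. Ddc, the next enzyme of dopamine synthesis, had 1.10 and 1.01, Slc18a2, the vesicular monoamine transporter, -0.58 and -0.67, and Gch1, which makes the cofactor of Th, -0.96 and -1.12. The other probes of these 3 genes lay at -2.58, -3.68 and -3.75. Drd2, a dopamine receptor, lay at -3.81 and -4.21. Etv1, a transcription factor of these cells, had 5.19 and 5.16, with its other probe at -1.59. The median of the 10 genes was 0.99.

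Mitral and tufted cells were represented by 11 of 11 genes with a median of 2.19. Cck and Nmb, neuromedin B, had 6.66 and 6.57 and 5.44 and 5.36, Cdhr1, a cadherin-related protein, 4.66 and 4.72, and Doc2g 4.46 and 4.56. Reln, reelin, had -1.04 and -1.06, Slc17a6, a vesicular glutamate transporter, 0.44 and 0.41, and Lhx5 lay at -2.87 and -2.71.

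The sensory neuron list held both bright and dim probes. Omp, S100a5, Gng13 and Gap43, the last a growth protein of axons, were among the brightest 10.0%, with Gap43 at 4.06 and 4.05. The other 12 of 16 genes had signal and lay below. The cyclic nucleotide-gated channel subunits, Cnga2, Cnga4 and Cngb1, and Adcy3, the adenylyl cyclase of odour transduction, had means between -1.86 and -1.01. Ano2, the calcium-activated chloride channel, had -2.41 and -2.82, and Rtp1, which carries odorant receptors to the surface, -3.70 and -4.46. The median of the list was -1.18, between those of its upper and lower members.

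Odorant receptors themselves were mostly without signal. Of 1100 genes, 236 had signal (21.5%) against 72.3% of all genes, and the median level was -7.76. Only Olfr544 with 1.76 and 1.73 and Olfr173 with 1.32 and 1.22 lay above the 75th percentile. Vomeronasal receptors were alike, with 59 of 256 having signal, and so were trace amine receptors with 4 of 14 and taste receptors with 6 of 38. These families are large and similar in sequence, so that a probe may read more than 1 member.

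Migrating neuroblasts had signal in 11 of 11 genes, against 72.3% of all genes, with a median of 2.99. Stmn1, stathmin, had 6.75 and 6.72, Tubb2b 4.74 and 4.72, Tubb3 4.69 and 4.63, and Stmn2 4.06 and 4.08. Of these, Stmn1, Tubb2b and Tubb3 are also in the list of tubulin and actin. Dcx lay lower with 2.91 and 3.07, as did Cd24a with 1.54 and 1.65 and Igfbpl1 with 0.81 and 0.93. Sox11 had 0.57 and 0.73 at the lower end. Prokr2, a receptor needed for this migration, had 0.78 and 0.91, with its other probe at -8.12. Genes of dividing cells had a median of -3.74, against -2.63 over all genes. Of 12, 8 had signal, a share (66.7%) near the 72.3% of all genes. Pcna, a replication clamp that is also used in repair, was the highest with 3.09 and 3.08, and the next, Birc5, had -1.64 and -2.06. Bub1, Aurkb and Cenpf were above background on neither array and Top2a on array 1 alone.

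Transcription factors of the forebrain had signal in 19 of 21, against 79.7% of genes with a RefSeq mRNA accession. Zic1 had 4.85 and 4.79, its other probe at -0.48. Six3 was above background on neither array and Otx1 on array 1 alone. The homeobox clusters, which pattern the hindbrain and spinal cord, had signal in 5 of 39 genes, with a median of -7.89, the lowest share among the 22 families.

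**Figure D4:**
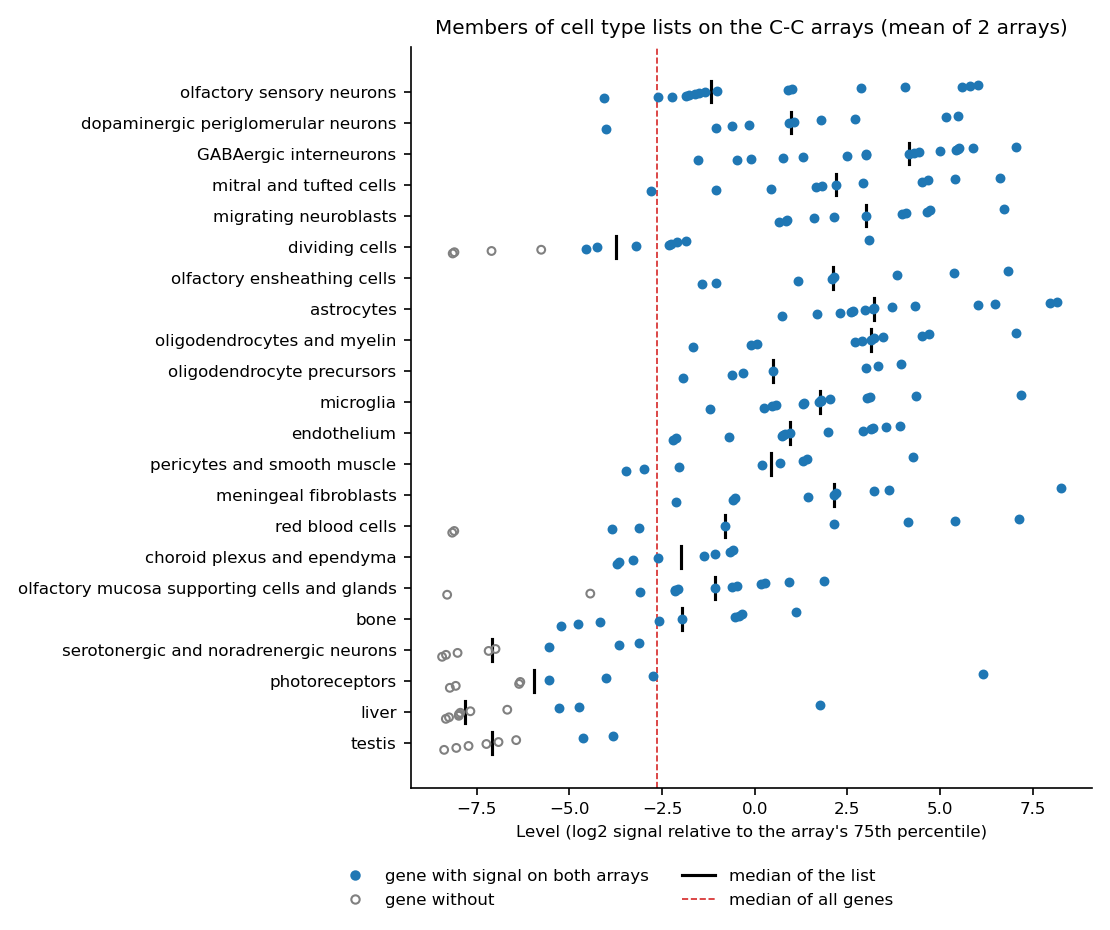
Level (log2 signal relative to the array's 75th percentile, mean of 2 arrays) of each member of 22 of the lists. Blue points have signal on both arrays, open points do not, black bars are medians and the dashed line is the median of all genes, -2.63. With each gene at its brightest probe, the GABAergic interneurons have the highest median, 4.15. The median of the liver list, -7.81, lies among genes without signal, since 3 of its 10 genes have signal. Such medians are not ranked. With the median over probes, astrocytes (3.01) and myelin (2.70) lie above the GABAergic interneurons (2.49).

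Astrocyte genes had signal in 14 of 14, against 72.3% of all genes, with a median of 3.21 and 8 among the brightest 10.0%. Sparcl1, a secreted matrix protein, had 8.18 and 8.14, Aldoc 8.04 and 7.91, Clu, clusterin, 6.52 and 6.45, and Glul, glutamine synthetase, 6.06 and 5.98. Gja1, a gap junction protein, had 0.68 and 0.81. Ensheathing cells had signal in 8 of 8, from Fabp7, a fatty acid-binding protein shared with other glia, at 6.89 and 6.78 to L1cam at -1.29 and -1.57. Npy and Frzb had 3.85 and 3.81 and 2.08 and 2.09.

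Myelin genes had a median of 3.13 over 11 genes. Mal had 4.49 and 4.53 and Mobp 3.40 and 3.52, while Opalin had -1.69 and -1.64. Oligodendrocyte precursors had a median of 0.50 over 7 genes, led by Ptprz1 with 3.93 and 3.94 and Gpr17 with 3.32 and 3.31. Microglia had signal in 14 of 14, against 72.3% of all genes, with a median of 1.75. Csf1r, the receptor on which they depend, had 4.39 and 4.33 and Cx3cr1 3.11 and 2.97. Siglech stood above these at 7.16 and 7.18, but its probe shares letters with others and its next probe lay at 1.47. P2ry12 had 0.46 and 0.47 and P2ry13 -1.12 and -1.27.

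Blood vessels were represented by 13 of 13 endothelial genes with signal, against 72.3% of all genes, and a median of 0.94. Cldn5, a tight junction protein of the blood-brain barrier, had 3.88 and 3.95, and Pecam1 -2.21 on both arrays. Pericytes and smooth muscle had a median of 0.44 over 8 genes, led by Vtn, vitronectin, with 4.31 and 4.24. Red blood cell genes parted into the globins and the rest. Hba-a2 had 7.09 and 7.18, Hba-a1 5.30 and 5.51 and Hbb-b1 3.96 and 4.33, whereas Epb4.2, of the membrane skeleton, was without signal. The globin copies are close in sequence and a probe may read more than 1 of them. Choroid plexus genes had signal in 8 of 8 and a median of -1.99. This lay above the -2.63 of all genes but below the -0.75 of genes with a RefSeq mRNA accession. Ttr, the transport protein of the choroid plexus, had -3.19 and -2.03. Lymphocyte genes had signal in 5 of 9, against 72.3% of all genes, and a median of -5.52. Cd4 had 1.09 and 1.00, with its other probe at -5.52.

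Lists for other organs varied in how many members had signal, against 72.3% of all genes. Of 10 liver genes, 3 had signal: Apoa2 with 1.76 and 1.73, its other probe at -2.94, Apoh with -4.92 and -4.55 and Fga with -5.18 and -5.36. Alb, albumin, was without signal. Of 8 testis genes, 2 had signal, Prm2 with -3.89 and -3.75 and Tnp1 with -4.80 and -4.47. Of 8 photoreceptor genes, 4 had signal. Among these, Sag had -2.74 on both arrays, Pde6a -4.15 and -3.89, and Gnat1 -5.92 and -5.20. Of 8 epidermal genes listed, 7 were on the array and 4 had signal, Lor with 1.61 and 1.64, Krt10 with 1.08 and 1.06, Krt5 with -3.53 on both arrays and Krt14 with -4.66 and -4.70. The other probes of Krt10 and Krt5 lay at -3.68 and -8.20. Pancreas genes had signal in 7 of 8, a share above that of all genes, with a median of -3.60, and muscle genes in 6 of 10 with a median of -5.74.

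Lists for neurons of other brain regions are set against 72.3% of all genes with signal. Of 8 genes of serotonergic and noradrenergic neurons, whose cell bodies lie in the brainstem, 3 had signal, Dbh with -3.01 and -3.21, Fev with -3.75 and -3.60 and Slc6a4 with -5.80 and -5.30. Tph2 was without signal. Cholinergic genes had signal in 3 of 5 (60.0%), with Chat at -2.22 and -2.48 from a probe of shared letters. Among hypothalamic peptides, 9 of 11 had signal (81.8%). Trh had 4.19 and 4.09 and Crh 1.98 and 1.89, both above the 75th percentile, while Pmch was above background on neither array and Kiss1 on array 1 alone. Striatal genes had a median of 0.67 over 7 genes and cortical projection neuron genes of 0.05 over 7. Without probes of shared letters, these medians were -0.88 and -1.70 over 6 genes each. The cerebellar list had signal in 5 of 8 (62.5%), and Cbln1 led it with 2.12 and 2.15, its other probe at -2.23.

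The sex-linked genes were spread widely. Of the Y-linked genes, Eif2s3y and Ddx3y had 2.35 and 2.27 and 1.23 and 1.17, while Uty and Kdm5d lay lower with -3.35 and -3.66 and -4.65 and -4.50, all 4 with signal. Xist, which is transcribed from the inactive X chromosome of females, was above background on array 1 alone, with -5.82 and -6.92. Tsix was above background on neither. Imprinted genes had signal in 17 of 18, against 72.3% of all genes, led by Gnas with 6.17 and 6.21, Meg3 with 5.65 and 5.66 and Impact with 4.83 and 4.82, its other probe at -1.15. Magel2 had -2.87 and -3.37, and Peg10 was above background on array 1 alone.

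**Figure D5:**
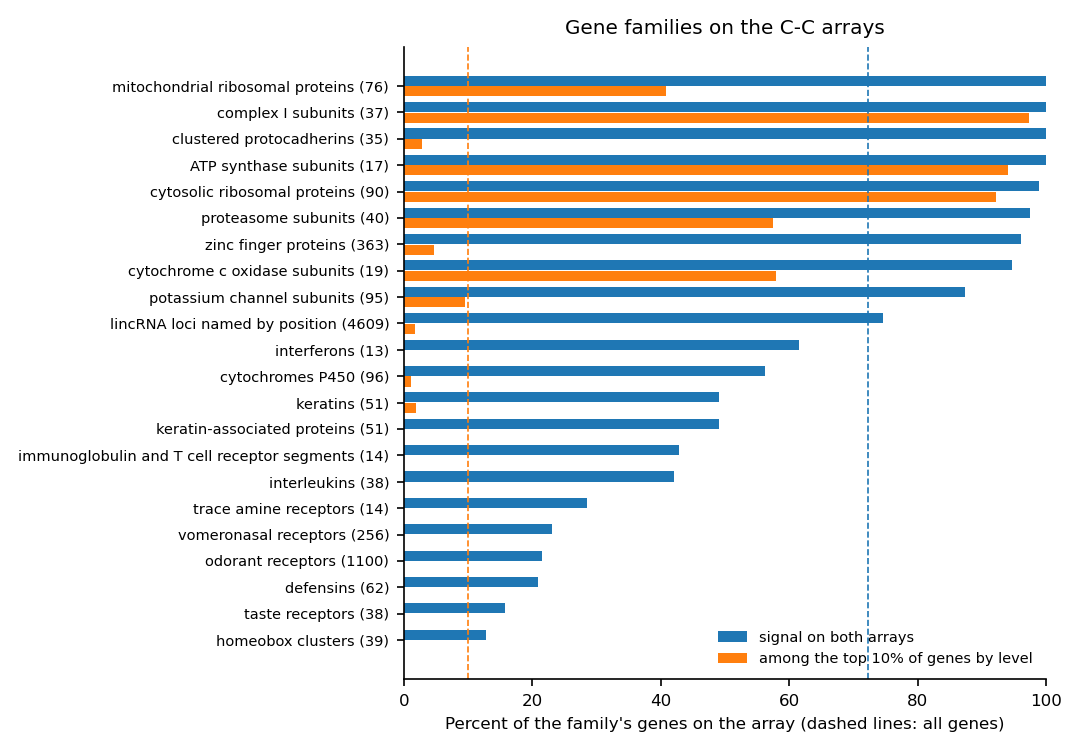
Percent of each family's genes with signal on both arrays (blue) and among the brightest 10% of genes by level (orange), with the number of genes in brackets. Dashed lines show all genes, 72.3% and 10.0%. Complex I, ATP synthase and cytosolic ribosomal proteins exceed 90% on both measures, and the receptor families, defensins and homeobox clusters lie below 30% for signal.

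At the lower edge of detection, the 10 genes with a RefSeq accession and the lowest levels that still had signal lay between -6.07 and -5.94. Mb, myoglobin, was the lowest with -6.10 and -6.04, followed by Cdca2, a cell division protein, with -6.19 and -5.88, and Lce1l, a protein of the skin's cornified layer, with -6.04 and -6.02. The others were Gpr149, Serpinb1c, Olfr1175-ps, Olfr850, Gm11437, Ntng2 and Olfr1111. At this level 14.3% of genes lay at least 1.5-fold apart between arrays, so that these 10 cannot be ordered. Genes without signal had a median level of -7.82, and the highest of them lay at -3.44. The negative control spots had median levels of -8.31 and -8.19, and the highest of them lay at -3.54 and -0.80. Other families with a smaller share of members with signal than all genes (72.3%) were defensins, antimicrobial peptides of epithelia, with 13 of 62 having signal, interleukins with 16 of 38, keratins and keratin-associated proteins with 25 of 51 each and immunoglobulin and T cell receptor segments with 6 of 14. Cytochromes P450 with 54 of 96 and interferons with 8 of 13 lay below it too.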

How the data were processed

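One-colour Agilent arrays (SurePrint G3 Mouse GE) were read for the 2 C-C samples. The deposited values are intensity from Agilent Feature Extraction 10.7.3.1, in which the authors' scanner software had removed background and spatial trends, per the file headers, without scaling between arrays. The arrays of the other groups and the deposited series table, in which each probe is centred over the 8 arrays, were not used.

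From 59305 noncontrol spots per array, log2 of the processed signal minus that of the array's 75th percentile was computed. Spots with a non-uniformity or population outlier flag on either array were left out and spots of a probe were averaged, which left 55666 probes of 34789 gene names. A gene took its brightest probe by the mean of both arrays. Signal is the well-above-background flag on both arrays. Probe positions are those of the files (mm9), which were not checked against a genome. Letters shared by probes were counted as runs of 12 bases.

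Cell type and function lists, 45 in all with 515 of 519 symbols found, and 22 families defined by symbol, were written by hand. Patterns of the families were narrowed on the gene names of the array. The members and lists were chosen with earlier results of these data known. Beside the 5 markers, the genes named are the 25 highest with a symbol, up to 4 highest and 4 lowest of a list, list members with signal for another organ where 5 or fewer had it, the 10 lowest RefSeq genes with signal, and the 5 genes with the widest spread between probes and between arrays; further members, named for their role, were chosen after their values were seen. The arrays' number and their signal over background limit the precision, and no test was made. The ordering and the count of shared letters were tested on simulated data. The tools were R 4.3.3 and limma 3.58.1 for normexp and quantiles, and otherwise Python 3.11.15, with pandas 2.3.3, numpy 2.4.6 and matplotlib 3.10.9. The alternatives were normexp with an offset of 50, 2 other scales, quantile normalization, the median over probes, 2 other signal criteria, outlier spots kept, GenBank or RefSeq accessions only and leaving out each array. Leaving out probes of shared letters was added after seeing the data. Some members of these rules and lists are not reported here.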

Additional observations from a re-analysis of the deposited data

How the results depend on the processing

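The count of 25136 genes with signal lay between 18485 of 24495, with GenBank or RefSeq accessions only, and 29003 of 34789, with the criterion of positive and significant signal. The order of the top was less stable. With the median over a gene's probes, 66 of the 100 brightest genes were shared with the order described above, and without probes of shared letters, an alternative chosen after seeing the data, 60 were. Under the other alternatives 70 to 100 were shared. Leaving out 1 array gave 25447 to 26234 genes with signal, 94 to 95 shared genes of the top 100 and 456 to 466 list members with signal, against 455 of 515. The cause was not tested. Of 540 recomputed counts of single lists, 534 were within 1.5 times, and the 6 others were of lists with few detected members, such as lymphocytes, where 5 of 9 became 9 of 9 under the criterion of positive and significant signal. Of 533 recomputed levels of single named genes, 383 lay within the SD between the arrays, and another scale shifts every level alike. No paired analysis was possible because no groups were compared. Signal over background limits the lower edge: no spot below a level of about -6 was well above background on either array, so that absence there is not shown.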

Other observations

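The 5 genes with signal whose arrays lay farthest apart were mostly unnamed transcripts. A long intergenic RNA locus on chromosome 2 had -7.76 on array 1 and 0.16 on array 2, another on chromosome 9 had -4.94 and 1.98, and an Ensembl transcript on chromosome 12 had -5.62 and 1.24. Gm9054 had -2.70 and 2.02. AW987390 lay the other way with -1.56 and -5.85. The locus on chromosome 2 owes its signal on both arrays to another of its 5 probes.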
